A study of Rattus norvegicus with 6 samples.

Results

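The carbonyl reductase genes Cbr1, Cbr3 and Cbr4 were examined together with Setd4 and Sh3bgr in the thoracic aorta of SHR, the spontaneously hypertensive rat, an inbred line bred for raised blood pressure, and of WKY, the Wistar-Kyoto line with normal pressure from the same stock. The group was chosen by the difference between the strains on these arrays, since Cbr1 and Sh3bgr were among the few genes that passed the test over all genes. Cbr3 and Cbr4 are the other carbonyl reductase genes of that name and Setd4 is the neighbour of Cbr1. Probe sets were found by name: a probe set, the group of short probes that reports 1 transcript on an array, was taken where the platform annotation gave it a single gene and that gene was one of these. This selected 7 of 28879 probe sets, for all 5 of the genes. Cbr1 had 3 probe sets and each of the other genes had 1. The rats were 24 weeks old and had received no treatment beyond a measurement of tail blood pressure. Their aortae were freed of fat before freezing. Each strain was measured on 3 Affymetrix Rat Gene 2.0 ST arrays, 6 arrays in all. Whether the arrays of a strain came from separate animals is not stated, so each p-value reflects only the spread among these arrays, which may be technical. The sex of the rats is not stated either.

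Carbonyl reductases are enzymes that use NADPH to reduce aldehydes, ketones and quinones to less reactive alcohols and hydroquinones, and most belong to the short-chain dehydrogenase/reductase superfamily. Cbr1 encodes a cytosolic enzyme of broad specificity. In humans it reduces quinones, the ketone of the anthracycline drug doxorubicin and carbonyl groups of prostaglandins of the E class, which yields prostaglandins of the F class. Cbr3 encodes its closest relative, with a narrower activity in humans. The product of Cbr4 works in mitochondria, where in humans it joins Hsd17b8 to form the ketoacyl reductase of mitochondrial fatty acid synthesis. Setd4 encodes a lysine methyltransferase with a SET domain. Sh3bgr encodes a small acidic protein with a thioredoxin-like fold that is known from heart and skeletal muscle in humans and mice.

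In the RefSeq gene table of rat assembly GRCr8, 4 of the 5 genes lie on chromosome 11 and Cbr4 lies on chromosome 16. Setd4 and Cbr1 are next to each other and point away from each other. Cbr3 follows Cbr1 after 3 genes annotated as Cbr1-like, named Cbr1l1, Cbr1l2 and Cbr1l3. Sh3bgr lies farther along, with 25 other protein-coding genes between it and Setd4 when Cbr1 and Cbr3 are left out. The sources used here do not give the build behind the probe sets, and the assembly served for names, for gene order and for promoter sequence. The promoters of the neighbouring genes Setd4, Cbr1 and Cbr3, each of which had a probe set with a higher measured level on all SHR arrays, are given 5′ to 3′ on the strand of the gene and ending at the base before the annotated start. The sequences are those of the reference strain in RefSeq, at GRCr8 chr11:46344025-46344274 on the minus strand for Setd4, chr11:46346155-46346404 on the plus strand for Cbr1 and chr11:46478045-46478294 on the plus strand for Cbr3. Capitals mark matches on either strand to GCGTG, the core bound by the aryl hydrocarbon receptor.

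Setd4: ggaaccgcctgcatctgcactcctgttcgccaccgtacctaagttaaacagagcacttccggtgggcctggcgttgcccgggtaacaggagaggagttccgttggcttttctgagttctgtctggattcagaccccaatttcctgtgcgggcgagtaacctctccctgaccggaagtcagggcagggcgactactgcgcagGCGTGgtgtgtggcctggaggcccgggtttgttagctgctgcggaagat
Cbr1: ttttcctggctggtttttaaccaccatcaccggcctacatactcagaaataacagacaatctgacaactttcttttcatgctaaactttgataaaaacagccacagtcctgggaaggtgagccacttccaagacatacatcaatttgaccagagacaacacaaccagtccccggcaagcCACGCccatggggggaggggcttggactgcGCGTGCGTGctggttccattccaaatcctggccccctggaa
Cbr3: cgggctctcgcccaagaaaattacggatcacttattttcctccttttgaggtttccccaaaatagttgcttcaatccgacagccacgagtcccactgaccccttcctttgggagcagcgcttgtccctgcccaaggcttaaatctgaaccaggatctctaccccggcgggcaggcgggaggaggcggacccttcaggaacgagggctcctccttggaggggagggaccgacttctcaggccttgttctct

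The Cbr1 window held 3 matches to GCGTG, of which the last 2 share 1 letter. The Setd4 window held 1 match and the Cbr3 window 0. Of 27457 rat promoter windows of 250 bases, 27.2% held at least 1. The core of the antioxidant response element, TGACNNNGC, which is bound by Nrf2 and found in 10.2% of all windows, was not matched in any of these 3 windows or in that of Cbr4. The letters CCAAT, found in 34.3% of all windows, were matched 1 time in Setd4 and 1 time in Cbr4. GGGCGG, found in 32.4%, and TATAAA, found in 13.1%, were matched in none of the 4. These motifs were searched on both strands. No entry for Sh3bgr was in the promoter table. GC content was 59.6% in Setd4, 50.4% in Cbr1, 57.2% in Cbr3 and 46.4% in Cbr4, beside a median of 52% over all windows. These are descriptions of reference sequence, and the sequence of the SHR and WKY rats was not used here.

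Before the values, some facts of the arrays bear on how they read. The deposited values are log2 levels without a call of presence, and the array medians ran from 2.29 to 2.52, so a level near or under that range is not shown to lie above background. All differences are SHR minus WKY in log2 level, and where one strain lies near that range the difference in RNA may not match them. SHR replicate 1 stood apart by neuronal markers: the mean log2 level of 5 neuronal markers was 5.70 on it and 1.87 to 1.97 on the other SHR arrays, against 1.70 to 2.19 on the WKY arrays. Values on WKY replicate 3 were the least spread, with an SD over probe sets of 2.12, beside 2.22 to 2.27 on the other arrays. The tissue label was borne out by 6 smooth muscle markers, whose mean log2 level was 9.49 to 9.83 on SHR arrays and 9.67 to 9.91 on WKY arrays. White adipocyte markers varied within both strains, at a mean log2 level of 4.29 to 7.63 on SHR arrays and 6.04 to 7.43 on WKY arrays. The 3 tested brown adipocyte markers also varied, at a mean of 3.95 to 6.32 on SHR arrays and 5.38 to 8.29 on WKY arrays. These means lay above every array median, although the aortae had been freed of fat. Endothelial markers (4.12 to 6.30 on SHR arrays and 5.29 to 6.15 on WKY arrays) and macrophage markers (3.70 to 6.11 on SHR arrays and 4.47 to 5.42 on WKY arrays) varied likewise. In RNA of a whole tissue, fewer cells of a type and less RNA per cell cannot be told apart.

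Cbr1 gave discordant readings from its 3 probe sets. Probe set 17664759 had log2 levels of 6.02, 6.60 and 6.37 on SHR replicates 1, 2 and 3, against 2.40, 2.89 and 3.29 on WKY replicates 1, 2 and 3. Every SHR array lay above every WKY array, and a gap of 2.73 separated the lowest SHR from the highest WKY level. The means were 6.33 ± 0.29 in SHR and 2.86 ± 0.44 in WKY (SD, n = 3 each), a difference of 3.47 ± 0.26 (SE). WKY replicate 1 lay within the range of the array medians, 2.29 to 2.52, and the other WKY arrays lay above it. The difference in RNA may therefore not match this value. Of all 21659 tested probe sets, 1 had a larger positive difference.

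Neither of the other Cbr1 probe sets separated the strains. Probe set 17664766 had levels of 3.10, 2.92 and 3.12 on the SHR arrays, against 3.09, 3.14 and 3.58 on the WKY arrays. Probe set 17664770 had levels of 3.93, 3.74 and 3.73 on the SHR arrays, against 3.76, 3.69 and 4.14 on the WKY arrays. On both, WKY replicate 3 was the highest array, the strains overlapped, and the differences were -0.22 ± 0.18 and -0.06 ± 0.17 (SE). The SDs within a strain were 0.11 to 0.27 on these, against 0.29 and 0.44 on 17664759. Averaging the 3 probe sets gave 4.39 ± 0.04 in SHR and 3.33 ± 0.31 in WKY (SD, n = 3 each), a difference of 1.06.

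These 3 probe sets carry the same gene name in the platform annotation, but RefSeq lists 3 Cbr1-like genes beside Cbr1. Cbr1l3 has a named probe set of its own, which was dim in both strains, at 1.05 ± 0.07 in SHR and 1.26 ± 0.29 in WKY (SD, n = 3 each), and fell under the filter for testing. No probe set was named for Cbr1l1 or Cbr1l2. The probes' own sequences were not used here, so which copy each Cbr1 probe set reads was not tested, nor was a sequence difference between the strains under the probes.

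Cbr3 lay in the same direction as the first Cbr1 probe set. Its levels were 4.13, 3.28 and 3.29 on SHR replicates 1 to 3, against 1.92, 1.94 and 2.26 on WKY replicates 1 to 3. The strains did not overlap, with a gap of 1.02, and all 3 WKY levels were under the lowest array median. The means were 3.56 ± 0.49 in SHR and 2.04 ± 0.19 in WKY (SD, n = 3 each), a difference of 1.52 ± 0.26 (SE). SHR replicate 1, the array with the neuronal markers, was the highest, and without it the difference was 1.24. That array also had the highest mean log2 level of white adipocyte (7.63), endothelial (6.30), fibroblast (8.86) and macrophage (6.11) markers. It was not the highest for brown adipocyte markers, and it was the lowest for smooth muscle markers (9.49). The part of neuronal RNA, or of RNA from these other cell types, in the Cbr3 level of that array was not tested.

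Cbr4, the mitochondrial member of the family, did not separate the strains. Its levels were 4.28, 3.75 and 3.46 on the SHR arrays, against 3.93, 4.36 and 2.83 on the WKY arrays. The WKY arrays held both the highest and the lowest value. The means were 3.83 ± 0.41 in SHR and 3.71 ± 0.79 in WKY (SD, n = 3 each), a difference of 0.12 ± 0.40 (SE). The sign turned without WKY replicate 3 (-0.31) and without SHR replicate 1 (-0.10).

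Setd4, the methyltransferase gene beside Cbr1, had a smaller difference with little spread. Its levels were 3.01, 3.27 and 2.86 on the SHR arrays, against 2.10, 1.85 and 2.15 on the WKY arrays. The strains did not overlap, with a gap of 0.71, and the WKY levels were again under the lowest array median. The means were 3.04 ± 0.21 in SHR and 2.03 ± 0.16 in WKY (SD, n = 3 each), a difference of 1.01 ± 0.17 (SE).

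Sh3bgr was the member with a lower level in SHR. Its levels were 3.61, 4.45 and 3.90 on SHR replicates 1 to 3, against 5.96, 6.30 and 6.43 on WKY replicates 1 to 3. All 6 levels were above the array medians, and the strains were 1.51 apart at the closest. The means were 3.99 ± 0.43 in SHR and 6.23 ± 0.24 in WKY (SD, n = 3 each), a difference of -2.25 ± 0.24 (SE). Among all tested probe sets 2 had a more negative difference.

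**Figure D1:**
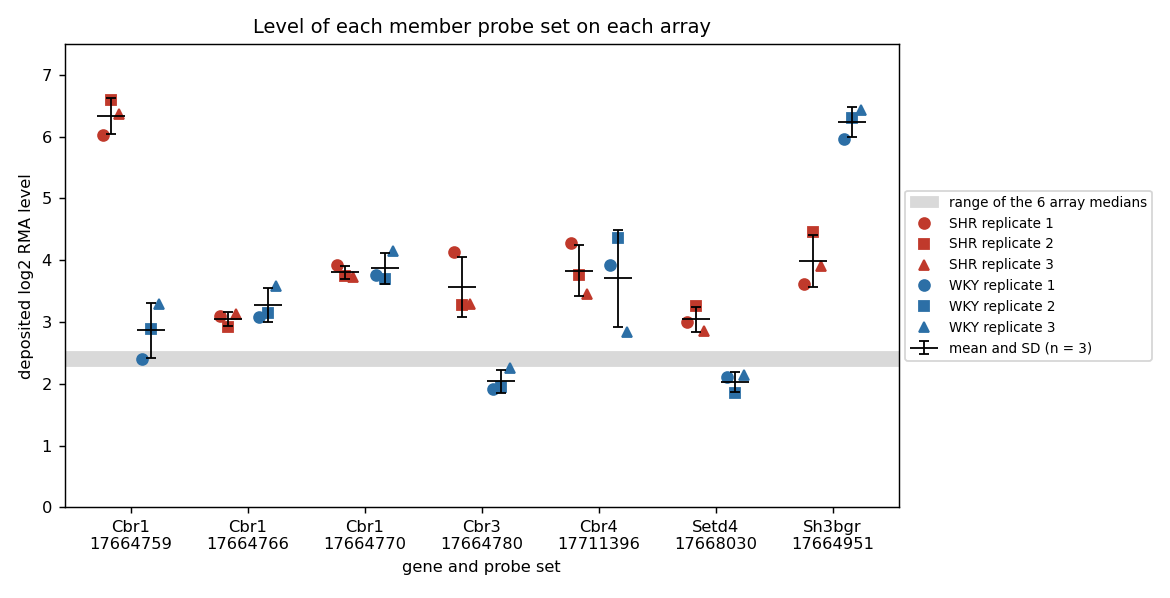
Deposited log2 level (vertical axis) of the 7 probe sets of Cbr1, Cbr3, Cbr4, Setd4 and Sh3bgr on each array, SHR left of WKY, with the mean and SD of each strain (n = 3) and the range of the array medians in grey. Cbr1 17664759, Cbr3 and Setd4 are higher on every SHR array, Sh3bgr is lower on every SHR array, and the other 3 probe sets overlap.

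These genes were chosen with the strain difference already known, so the values above are a description. The adjusted p of the fit over all probe sets are given only to say which members passed in it, and are no independent evidence of the differences. In the fit of all tested probe sets with limma, 15 of 21659 (0.0693%) had an adjusted p under 0.05, of which 13 (0.06%) were higher and 2 (0.00923%) lower in SHR. Cbr1 17664759 and Sh3bgr were among them, with limma adjusted p of 0.0136 and 0.0395. Cbr3 and Setd4 were not (0.207 each), nor were Cbr4 (0.973) and the other Cbr1 probe sets (0.923 and 0.968). The strains were separated on 3 member probe sets with SHR higher and on 1 with SHR lower, out of 7. Over all tested probe sets, 6.48% were separated with SHR higher and 5.61% with SHR lower, 12.1% together.

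Which members passed changed when an array was left out, but each such fit also held fewer arrays. Over all tested probe sets 2 to 5 passed in those fits, against 15 with all arrays. The Cbr1 17664759 adjusted p in limma was 0.127 when SHR replicate 2 was left out, 0.106 when SHR replicate 3 was and 0.147 when WKY replicate 2 was, and that of Sh3bgr was above 0.05 whichever array was left out (0.0939 to 0.244). The differences themselves stayed between 3.24 and 3.69 for Cbr1 17664759, between 1.24 and 1.67 for Cbr3, between 0.90 and 1.10 for Setd4 and between -2.48 and -2.06 for Sh3bgr in these fits. The limma adjusted p of Sh3bgr was also above 0.05 after a further quantile normalization (0.0675). It was above 0.05 as well when the replicate number was added to the fit as a block, as given in the closing section. With arrays weighted by their closeness to the strain fit, the adjusted p of Cbr3 and Setd4 were under 0.05 (0.0373 and 0.0394 in limma). These weights come from the same values as the test. WKY replicate 3 had the lowest weight, 0.22, and 65 probe sets passed.

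The rest of the chromosome 11 neighbourhood had differences smaller than those of Cbr1 17664759, Cbr3, Setd4 and Sh3bgr, but in part larger than those of the other Cbr1 probe sets. It comprised the protein-coding genes between Setd4 and Sh3bgr and the 10 on either side of each of the 4 members, of which 34 genes were tested. None of the 34 passed in limma, the smallest adjusted p being 0.553. At an unadjusted p under 0.05 there were 5 higher and 0 lower. Of all tested probe sets 3.01% were higher and 2.54% lower at this threshold, 5.55% together. The median difference was 0.01, beside -0.01 over all tested probe sets, and the extremes were 0.90 and -0.75. The strains were separated with SHR higher on 7 of the 34 (20.6%, against 6.48% of all tested probe sets) and with SHR lower on 0. Some of these separations were narrow. The lowest SHR and highest WKY levels were 7.0098 and 7.0088 for Dyrk1a, 5.1134 and 5.1103 for Vps26c, and 8.677 and 8.637 for Rcan1. In these genes WKY replicate 3 was the lowest array, at 6.116, 3.740 and 7.296. The separations were wider for Runx1 (4.447 and 4.073), Hlcs (4.742 and 4.402) and Bace2 (6.143 and 5.846).

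Immediately beyond Setd4 the nearest gene, RGD1562683, was under the filter for testing and overlapped. The next was Runx1, a transcription factor of blood cell development, at 4.65 ± 0.29 in SHR and 3.96 ± 0.11 in WKY (SD, n = 3 each). Rcan1, an inhibitor of the phosphatase calcineurin that lies beyond Runx1, was at 8.90 ± 0.20 in SHR and 8.01 ± 0.67 in WKY, with no overlap. Dop1b, the gene that follows Cbr3, was at 4.86 ± 0.16 in SHR and 4.82 ± 0.26 in WKY. The differences were thus 0.69 at Runx1, the nearest tested gene beyond Setd4, and 0.04 at Dop1b, the nearest beyond Cbr3. The levels of 3 further neighbours overlapped between the strains, with differences of 0.20 for Morc3, 0.18 for the chloride channel gene Clic6 and -0.33 for the transcription factor gene Sim2.

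Farther along, Hlcs, the enzyme that attaches biotin to carboxylases, was at 4.81 ± 0.08 in SHR and 4.32 ± 0.13 in WKY, and the potassium channel gene Kcnj15 at 3.18 ± 0.16 in SHR and 2.55 ± 0.34 in WKY. Neither passed (limma adjusted p 0.651 and 0.764). Dyrk1a, a protein kinase gene, was at 7.08 ± 0.08 in SHR and 6.68 ± 0.49 in WKY. The genes that flank Sh3bgr had overlapping levels in the strains. On the near side Lca5l was under the filter, and Get1, which inserts tail-anchored proteins into membranes, was at 5.93 ± 0.22 in SHR and 5.80 ± 0.34 in WKY. On the far side B3galt5, a galactosyltransferase gene, was at 1.51 ± 0.18 in SHR and 1.39 ± 0.61 in WKY. Among the 16 tested neighbours of Sh3bgr the smallest unadjusted p belonged to Bace2, an aspartic protease gene, at 6.26 ± 0.11 in SHR and 5.72 ± 0.11 in WKY, followed by Kcnj15. The limma adjusted p of Bace2 was 0.574. Mx1, an interferon-induced GTPase gene, had the most negative difference of the window, -0.75 ± 0.34 (SE).

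**Figure D2:**
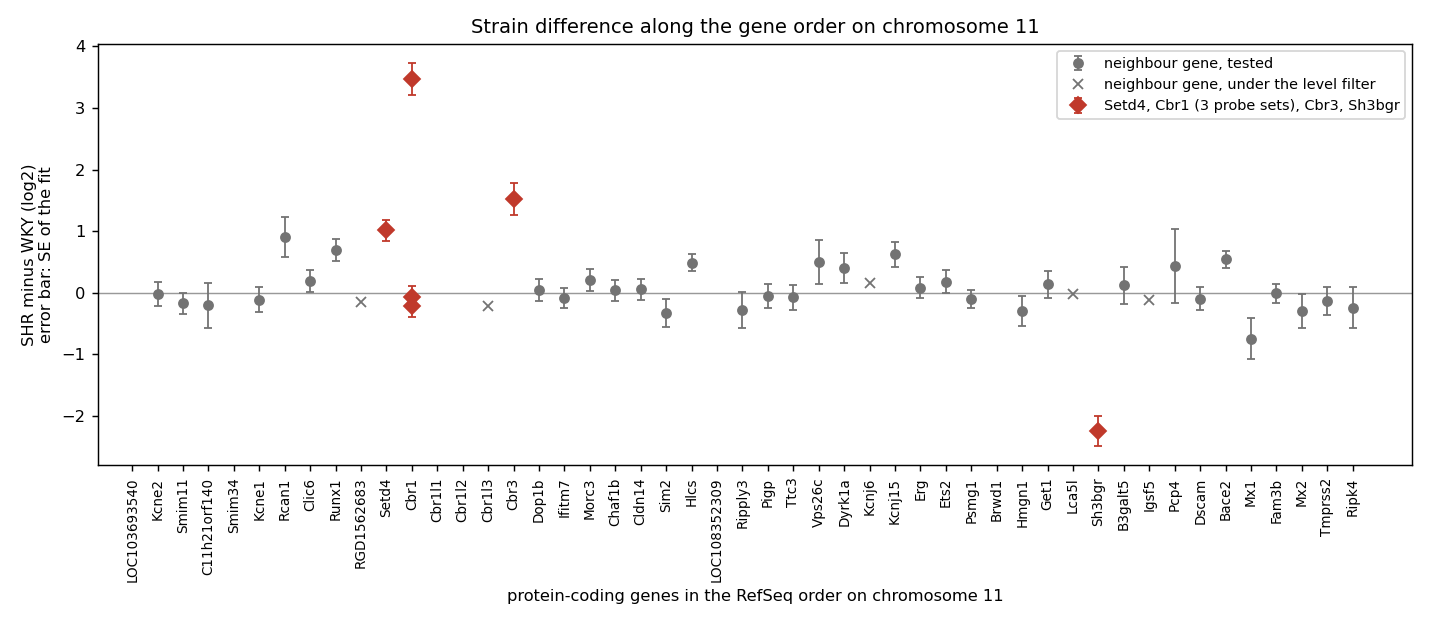
Difference SHR minus WKY in log2 level (vertical axis, bars are the SE of the fit) for protein-coding genes in their RefSeq order on chromosome 11 (horizontal axis, evenly spaced). Red diamonds are Setd4, the 3 Cbr1 probe sets, Cbr3 and Sh3bgr, grey circles are tested neighbours, crosses are neighbours under the level filter, and genes with no point have no named probe set. No tested neighbour is beyond 0.90 or -0.75.

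Cbr4 on chromosome 16 was set beside its own neighbours. Of 12 tested, 0 passed in limma, while with an unadjusted p under 0.05 there were 0 higher and 1 lower. At this threshold 3.01% of all tested probe sets were higher and 2.54% lower. The strains were separated with SHR higher on 1 of the 12, Galnt7, and with SHR lower on 2, Hpf1 and Sh3rf1. Over all tested probe sets these shares were 6.48% and 5.61%. Hpf1, a cofactor of DNA damage signalling by ADP-ribose, was the gene with an unadjusted p under 0.05. It was at 5.07 ± 0.08 in SHR and 5.70 ± 0.17 in WKY, with a limma adjusted p of 0.474. Galnt7, a glycosyltransferase gene, and Clcn3, a chloride transporter gene, differed by 0.29 and -0.13. The adjacent genes were Palld, an actin-associated protein of the cytoskeleton, at 6.21 ± 0.18 in SHR and 6.14 ± 0.15 in WKY, and Sh3rf1, a ubiquitin ligase gene, at 3.69 ± 0.16 in SHR and 4.02 ± 0.06 in WKY.

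Other enzymes that reduce carbonyl groups did not show the Cbr1 and Cbr3 pattern as a group. Of 27 tested genes, aldo-keto reductases and further short-chain dehydrogenases, 0 passed in limma, and at an unadjusted p under 0.05 1 was higher and 1 lower. At this threshold 3.01% of all tested probe sets were higher and 2.54% lower, the shares to set beside each list below. The 27 genes had a median difference of -0.06 (0.022 without WKY replicate 1), with a range from -0.54 to 0.87. The strains were separated on 2 with SHR higher and 2 with SHR lower, beside 6.48% and 5.61% of all tested probe sets. Hsd11b1, which regenerates active glucocorticoid, was at 4.97 ± 0.46 in SHR and 4.10 ± 0.44 in WKY (SD, n = 3 each), and Rdh10, a retinol dehydrogenase, at 4.93 ± 0.25 in SHR and 5.47 ± 0.15 in WKY. The strains were separated on both, but the limma adjusted p were 0.798 and 0.758. The separation of Hsd11b1 was very narrow, with a lowest SHR level of 4.480 and a highest WKY level of 4.476. For Rdh10 the highest SHR level was 5.21 and the lowest WKY level 5.32. Akr7a2, an aldehyde reductase, and Dhrs7, a short-chain dehydrogenase, differed by -0.33 and -0.27.

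Human CBR1 and CBR3 are known to respond to Nrf2, the transcription factor that induces genes of antioxidant defence. Of 23 tested genes on a list of Nrf2 targets and regulators, 0 passed in limma, while with an unadjusted p under 0.05 there were 0 higher and 1 lower. The median difference was 0.11, with a range from -0.54 to 0.39. The median was -0.065 without WKY replicate 3 and -0.022 without SHR replicate 1. The strains were separated with SHR higher on 4 of the 23 genes and with SHR lower on 3, beside 6.48% and 5.61% of all tested probe sets. The 4 were Nfe2l2, which encodes Nrf2 (0.34), Sqstm1 (0.19), Txnrd1 and Srxn1, and the 3 were Gstp1 (-0.20), Ephx1 and Osgin1. Nfe2l2 was at 8.30, 8.24 and 8.19 on the SHR arrays, against 8.14, 8.17 and 7.38 on WKY replicates 1 to 3. Its lowest SHR level was thus only just above its highest WKY level, and WKY replicate 3 lay well below the other arrays. The 1 gene with an unadjusted p under 0.05 was Ephx1, the microsomal epoxide hydrolase, at 6.53 ± 0.11 in SHR and 6.99 ± 0.23 in WKY. Txnrd1, the cytosolic thioredoxin reductase, was at 5.59 ± 0.02 in SHR and 5.30 ± 0.13 in WKY. Srxn1, which repairs oxidised peroxiredoxins, and Osgin1 differed by 0.39 and -0.25.

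On the prostaglandin side, 14 genes that make, break down or sense prostaglandins of the E and F classes were tested. None passed in limma, and 0 higher and 1 lower had an unadjusted p under 0.05. The list's median difference was -0.08 (0.11 without SHR replicate 3 and 0.12 without WKY replicate 1). Ptgs2, the inducible cyclooxygenase, was at 7.94 ± 0.86 in SHR and 9.19 ± 0.75 in WKY (SD, n = 3 each), and the strains overlapped. Its adjusted p in limma was 0.882. The receptor genes Ptger2, Ptger3 and Ptger1 had differences of -0.39, 0.65 and 0.27, each at 0.923 after adjustment in limma.

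Mitochondrial fatty acid synthesis, the pathway of Cbr4, had 9 tested genes, of which 0 passed in limma and 0 had an unadjusted p under 0.05. The median difference was -0.18 (0.015 without WKY replicate 1). Mcat, which loads malonyl groups, was at 3.89 ± 0.28 in SHR and 4.32 ± 0.37 in WKY, and the strains overlapped. Lipt1, a lipoyltransferase gene, differed by 0.43, while Oxsm, the ketoacyl synthase, and Ndufab1, the acyl carrier protein, differed by -0.22 and -0.24.

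Setd4 and Sh3bgr were likewise set beside their relatives. Of 17 other SET domain methyltransferase genes tested, 0 passed in limma, and 0 higher and 1 lower had an unadjusted p under 0.05. The median difference was 0.07 (-0.0031 without WKY replicate 3). Kmt5c, which methylates histone H4, was at 3.25 ± 0.07 in SHR and 3.65 ± 0.25 in WKY. Setd7, Setd5 and Setd1a differed by 0.26, 0.30 and -0.23. The 3 genes for SH3BGR-like proteins did not pass in limma, with 0 at an unadjusted p under 0.05, and differed by 0.40 for Sh3bgrl1, 0.15 for Sh3bgrl3 and 0.05 for Sh3bgrl2.

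**Figure D3:**
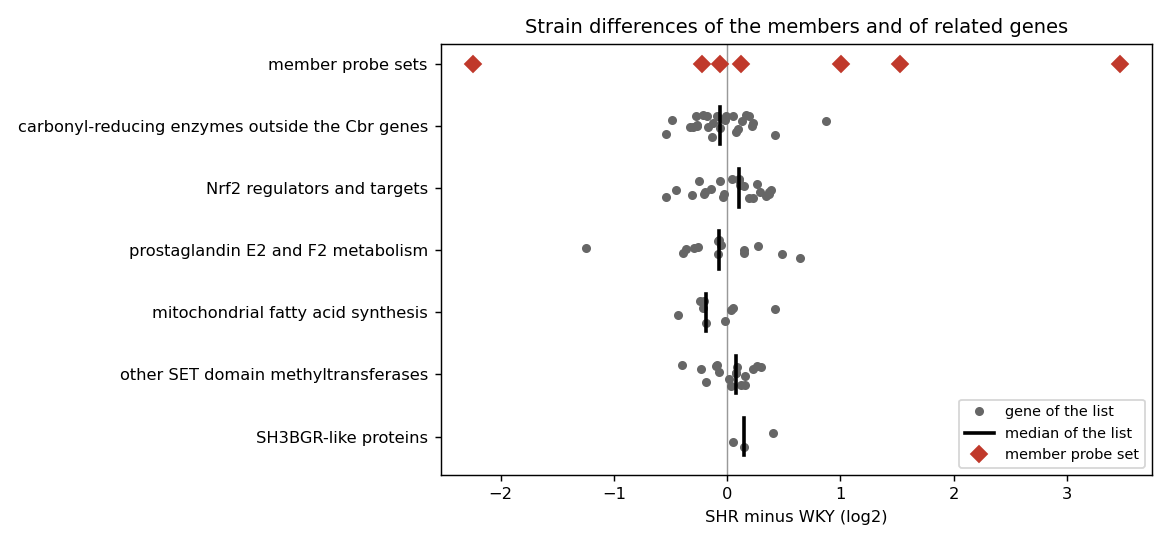
Difference SHR minus WKY in log2 level (horizontal axis) of the 7 member probe sets (red diamonds) above 6 lists of related genes (grey points, 1 per tested gene, black bar at the median). No gene of the 6 lists passed, and their medians lie between -0.18 and 0.15.

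Because Sh3bgr is known from heart and skeletal muscle, markers of those tissues were measured beside it. Of 24 tested muscle markers 0 passed in limma, while with an unadjusted p under 0.05 there were 1 higher and 3 lower. Over all tested probe sets, 3.01% were higher and 2.54% lower at this threshold. The median difference of the markers was -0.21, with 16 of 24 below 0. The strains were separated with SHR lower on 8 of them (33.3%, against 5.61% of all tested probe sets). Among these 8, Myl3 and Myl11 were under every array median in both strains. The SHR means of Tnnt2 (2.18) and Tnni2 (2.40) were under or within the range of the array medians. These levels are not shown to lie above background. Myoz2, a Z-disc protein of slow and cardiac muscle, was at 2.74 ± 0.26 in SHR and 3.61 ± 0.08 in WKY (SD, n = 3 each), with an adjusted p of 0.309 in limma. Acta1, the skeletal muscle actin, was at 5.56 ± 0.22 in SHR and 6.08 ± 0.26 in WKY, and Tnni2, a fast troponin, at 2.40 ± 0.04 in SHR and 2.78 ± 0.20 in WKY. Casq2, a calcium store protein known from cardiac muscle, was at 9.69 ± 0.36 in SHR and 8.94 ± 0.43 in WKY, with overlap. It was the brightest of the 24 markers, and which cell type its level came from was not tested.

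The muscle list as a whole overlapped between the strains. Its mean log2 level was 2.88 to 3.14 on SHR arrays and 3.02 to 3.35 on WKY arrays, and the log2 of its summed linear level was 9.69 to 10.29 on SHR arrays and 9.34 to 9.80 on WKY arrays. Casq2 made up 75.04% to 78.58% of that sum on SHR arrays and 55.08% to 71.94% on WKY arrays. Without it, a choice made after seeing the data, the log2 sum was 7.69 to 8.20 on SHR arrays and 7.97 to 8.28 on WKY arrays. None of the 24 markers was at 0, and 6 of them (Myh6, Myh7, Myl3, Myl11, Nppa and Ttn) were under every array median on all 6 arrays. The part of muscle RNA in the Sh3bgr difference was not tested.

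**Figure D4:**
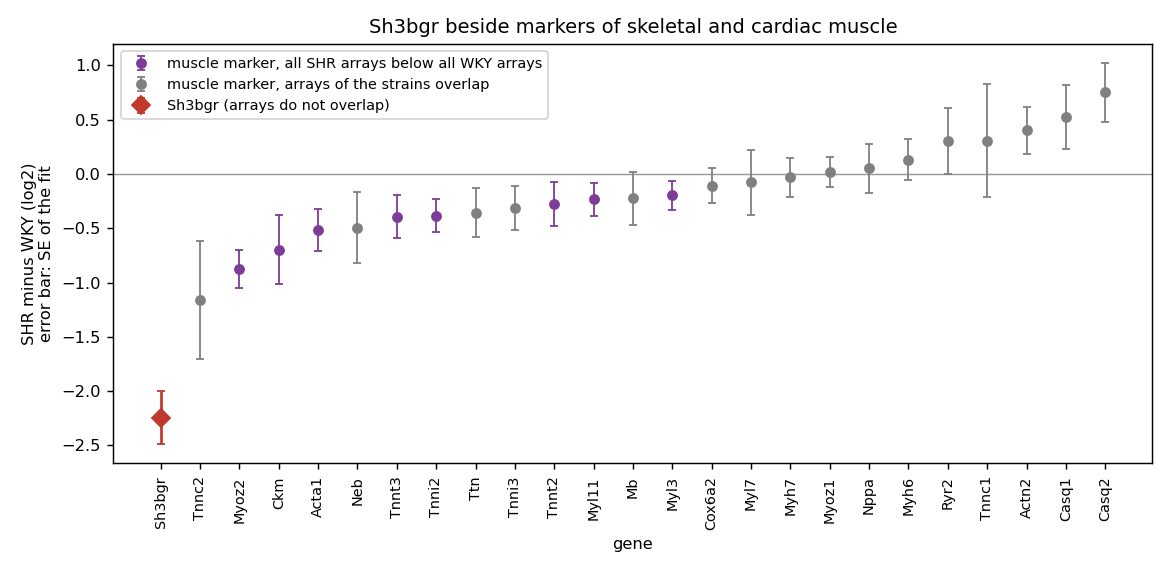
Difference SHR minus WKY in log2 level (vertical axis, bars are the SE of the fit) of Sh3bgr (red diamond) and of 24 markers of skeletal and cardiac muscle, sorted by the difference. Purple markers have all SHR arrays below all WKY arrays, as 8 of the 24 do. Sh3bgr, at -2.25, has the most negative value plotted.

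For each gene the named genes with the most similar profile over the 6 arrays were listed among 15280 others, by Pearson correlation of log2 levels. These correlations describe 6 arrays that share a platform and fall into 2 strains, so they carry the strain difference itself. The profile of Cbr1 17664759 was closest to those of Zcchc9 (r = 0.996), Bcat1 (0.994), which transaminates branched-chain amino acids in the cytosol, and Lamc1 (0.992), a laminin chain. In all, 58 of the 15280 genes (0.38%) had r over 0.95 with it. Cbr3 was closest to Hykk (0.997), Tmem154 (0.991) and P4ha3 (0.988), a subunit of collagen prolyl hydroxylase. Setd4 was closest to Krt36 (0.991), Dnajb11 (0.989), a chaperone of the endoplasmic reticulum, and Ddah1 (0.982), which breaks down methylated arginines that inhibit nitric oxide synthase. Sh3bgr was closest to Spata6l (0.995), Or8c10b (0.993) and Rpl10al1 (0.988).

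Cbr4 was closest to Drosha (0.998), the nuclease that cuts primary microRNAs, Tmx2 (0.998) and Psmc2 (0.993), a proteasome ATPase. These 3 genes differed between the strains by 0.02, 0.08 and 0.01, against 0.12 for Cbr4. Among the members, Cbr1 17664766 and 17664770 correlated at r = 0.831 with each other, and at -0.459 and -0.139 with Cbr1 17664759.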

How the data were processed

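Each deposited value is a log2 level of 1 probe set. The submitters' processing notes name RMA and Affymetrix Expression Console 1.2.1 for it. The log base follows from RMA and the range of the values. RMA quantile-normalizes arrays, and the probes' background cannot be redone from it. The sources used here give neither the level of summarization nor the genome build. Depth does not apply to arrays, and their number limits the precision.

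Probe sets with 1 symbol in the platform annotation (18511 of 28879) were named through Entrez identifiers in RefSeq GRCr8 (18394 matched). All probe sets, named or not, with a mean at or above the 25th percentile (log2 1.17) were tested: 21659, with 7220 left out. All 7 member probe sets passed this filter. Each tested probe set was fitted in limma 3.58.1 (R 4.3.3, lmFit and eBayes) with strain as the only term, two-sided, with Benjamini-Hochberg adjustment over all tested probe sets, and passing means an adjusted p under 0.05. The script was tested on simulated data.

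A listed gene is represented by its brightest tested probe set. Members and lists were chosen with earlier results of these data known. Named are all members, from each list of related genes, neighbours or muscle markers the 4 genes with the smallest unadjusted p, the nearest measured neighbours and the 3 genes with the most similar profile. Nfe2l2, Sqstm1, Gstp1 and the dim muscle markers were chosen after their values were seen. Alternatives were a further normalization, median centring, other filters, a replicate block, a trend with a robust prior, array weights, the mean of a gene's probe sets and leaving out each array.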

Additional observations from a re-analysis of the deposited data

How the results depend on the processing

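Over all probe sets 15 passed, against 3 with the replicate block, 65 with array weights and 2 to 5 when an array was left out, where fewer arrays entered each fit. The other settings gave 11 to 15. With array weights, which gave WKY replicate 3 a weight of 0.22, Cbr3 and Setd4 passed as well (limma adjusted p 0.0373 and 0.0394). Whether the replicate numbers pair the arrays could not be settled. Deviations from the strain means correlated at 0.354, -0.079 and 0.228 for numbers 1 to 3. For SHR replicates 1 and 3 the WKY array of the same number correlated best, but SHR replicate 2 correlated best with WKY replicate 3. With the replicate block Cbr1 17664759 passed (limma adjusted p 0.00991) and Sh3bgr did not (0.0607). The difference of Cbr1 was 1.06 as the mean of its probe sets, by construction. Cbr4 had -0.30 with array weights. No gene of the related or neighbour lists passed in limma under any of these settings. With array weights the median difference was -0.17 for carbonyl-reducing enzymes, -0.12 for Nrf2 genes and 0.15 for the neighbours of Setd4. With the filter at the 50th percentile it was 0.28 for SH3BGR-like proteins and 0.20 for the neighbours of Cbr3. Leaving out an array moved these medians between -0.19 and 0.022 (carbonyl-reducing enzymes), -0.27 and 0.015 (mitochondrial fatty acid synthesis), -0.20 and 0.12 (prostaglandins), -0.065 and 0.18 (Nrf2), -0.0031 and 0.084 (SET domain genes) and -0.074 and 0.12 (neighbours of Setd4). The cause was not tested. Of 418 recomputed values, 395 stayed within the replicate spread or within 1.5 times the count. Part of this was fixed in advance and is no measure of robustness. The replicate block, the trend with a robust prior and the filters leave the difference of a member probe set unchanged. Many of the other values are counts for lists in which no gene passed under any setting.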
